A study of Homo sapiens with 6 samples.

Results

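MYLK, the myosin light chain kinase, and 9 other genes of the actomyosin contraction machinery were followed in pancreatic cancer cells with and without knockdown of PRLR, the prolactin receptor. The 10 genes were taken by name, and all 28 probe sets annotated with 1 of these gene symbols alone were used, out of 41091 such probe sets and 19775 genes on the array. MYLK was chosen by its log2 difference between the groups in these same arrays, which was among the largest rises of genes above the median level. That difference is therefore given as a description, with no test. The 9 others were added for their function.

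The cells were SW-1990, an established human line of pancreatic adenocarcinoma taken from a metastasis in the spleen. The sh-PRLR cells carried a lentiviral short hairpin RNA (shRNA) against PRLR, and the sh-Ctrl cells a scrambled shRNA. Both had been infected with lentivirus and kept in puromycin at 1 μg/ml for over 7 days, so infection and selection were shared by the controls. Each group had 3 Affymetrix arrays, labelled as biological replicates with no word on separate infections. Only 1 targeting shRNA is described in the labels, so an effect of PRLR loss and an effect of that hairpin cannot be told apart, and p-values measure the spread between these arrays. Values below are on the log2 scale, for single probe sets, and differences are sh-PRLR minus sh-Ctrl. A gene is represented by its brightest probe set, the one with the highest mean over all 6 arrays.

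PRLR was read by 7 probe sets, all below the median gene level and all with a lower mean in sh-PRLR. Their average was 4.17 ± 0.22 in sh-PRLR and 5.02 ± 0.22 in sh-Ctrl, and no single one passed the test described below. As signs of RNA quality, the 3′ minus 5′ difference of the array's control probe sets ran from 2.99 to 3.11 in sh-PRLR and 3.05 to 3.36 in sh-Ctrl for ACTB, and from 0.09 to 0.20 in sh-PRLR and 0.19 to 0.28 in sh-Ctrl for GAPDH. Their part in the results was not tested. Among markers of other cell types 0 of 7 fibroblast, 0 of 4 endothelial and 0 of 3 measured immune markers passed. In these lists 1, 0 and 1 had an unadjusted p under 0.05 by limma, against 4010 of all 19775 genes. Summed over each list on the linear scale and then taken as log2, sh-PRLR read 8.59 to 8.73, 7.51 to 7.98 and 6.55 to 7.65 for fibroblast, endothelial and immune markers, and sh-Ctrl read 8.67 to 8.78, 7.42 to 7.56 and 6.91 to 7.41 for the same lists. Of these 14 markers 12 lay below the median gene level.

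Non-muscle cells contract when the heavy chains of myosin II pull on actin filaments, and the pull is switched on by phosphorylation of the regulatory light chain bound to each heavy chain. MYLK adds that phosphate under control of calcium and calmodulin. ROCK1 and ROCK2, kinases switched on by the GTPase RHOA, act on the same light chain and also restrain the myosin phosphatase that removes the phosphate, which PPP1R12A directs to myosin. In epithelial cells this machinery tightens the actin belt at cell junctions and drives cell movement. Transcript levels, measured here, say nothing of phosphorylation.

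Among the members, a window around an annotated start of transcription is shown for the kinase genes MYLK and ROCK2, because these were the windows of members that held a CArG box, the site bound by serum response factor (SRF), which is known to drive many contractile genes. The sequences are from RefSeq on GRCh38.p14, run 5′ to 3′ on the strand of the gene from 250 bases before to 50 bases after the start, and have the CArG box in capitals. The MYLK window is chr3:123620499-123620798 and the ROCK2 window chr2:11345388-11345687, both on the minus strand.
MYLK: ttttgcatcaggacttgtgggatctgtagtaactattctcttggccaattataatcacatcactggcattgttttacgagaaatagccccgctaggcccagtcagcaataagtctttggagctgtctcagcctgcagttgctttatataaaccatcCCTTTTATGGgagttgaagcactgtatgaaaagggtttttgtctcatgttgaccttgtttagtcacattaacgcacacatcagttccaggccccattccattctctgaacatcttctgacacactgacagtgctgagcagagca
ROCK2: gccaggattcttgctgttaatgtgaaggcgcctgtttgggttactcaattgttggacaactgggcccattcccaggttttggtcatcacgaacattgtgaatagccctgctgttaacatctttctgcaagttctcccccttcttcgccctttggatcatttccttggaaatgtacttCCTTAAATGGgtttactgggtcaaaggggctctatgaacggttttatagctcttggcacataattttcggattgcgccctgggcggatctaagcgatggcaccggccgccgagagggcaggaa
The MYLK box ran from 94 to 85 bases before the start site, and the ROCK2 box from 73 to 64 bases before it. A window at another annotated ROCK2 start, 801 bases downstream of the one shown, held no such box. The motif searched was CC, then 6 letters that are each A or T, then GG, a pattern that a box on either strand meets. It was found in 2 of 17 windows of the 9 members that had one, and in 454 of 35116 windows of all genes (1.29%). The start given for MYLK lies 263784 bases downstream of the annotated 5′ end of the gene, so it is an internal start, and the window says nothing of the start of the long kinase transcript. MYLK is known to make a short product without kinase activity, telokin, from an internal start. Which MYLK transcripts the probe sets read was not examined here. A match to the motif is a description of these letters, and the brightest probe sets of these genes differed in opposite directions, as given next.

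MYLK was higher in sh-PRLR cells by 1.35 on the log2 scale, a fold of 2.56. Its brightest probe set, 224823_at, read 8.66, 8.69 and 8.87 in sh-PRLR and 7.45, 7.45 and 7.26 in sh-Ctrl (8.74 ± 0.12 against 7.38 ± 0.11, SD, n = 3 each). Every sh-PRLR array lay above every sh-Ctrl array. Counted from the highest difference, MYLK had rank 645 among all 19775 genes, where dim genes scatter widely. Of the 9887 genes with a mean above the median gene level of 7.23, it had rank 3.

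The other 4 MYLK probe sets were dimmer, with means below the median gene level, and they did not all agree. Probe set 202555_s_at read 6.93, 7.29 and 6.92 in sh-PRLR and 6.14, 5.88 and 6.35 in sh-Ctrl, a difference of 0.92. It separated the groups in the same direction as the brightest probe set. For 1563466_at the values were 4.92, 4.66 and 5.44 in sh-PRLR and 4.70, 3.96 and 4.22 in sh-Ctrl (difference 0.71), with 1 sh-PRLR array inside the range of sh-Ctrl. For 1568770_at they were 4.19, 3.06 and 4.83 in sh-PRLR and 3.69, 2.31 and 1.15 in sh-Ctrl (difference 1.64), again with overlap. Probe set 1569956_at went the other way, at 3.46, -1.11 and -0.03 in sh-PRLR and 3.13, 3.27 and 1.05 in sh-Ctrl (difference -1.71). That probe set had the lowest signal of the 5 and an SD of 2.39 in sh-PRLR, so its sign rests on values that scatter over several log2 units. Averaged over all 5 probe sets, MYLK was higher by 0.58.

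**Figure D1:**
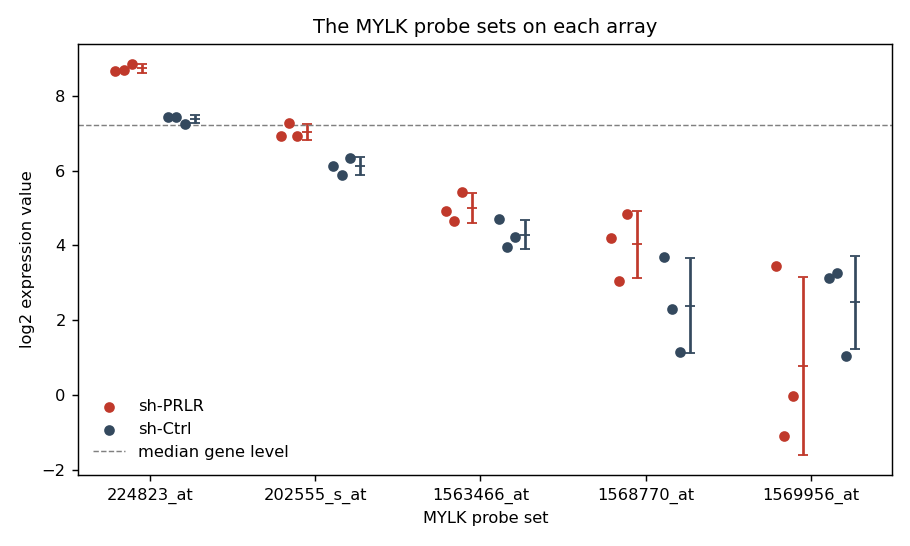
Log2 expression value of each MYLK probe set (horizontal axis, brightest first) on each array, with sh-PRLR arrays in red left of sh-Ctrl arrays in dark blue, bars for the mean ± SD of 3 arrays and a dashed line at the median gene level of 7.23. The 2 brightest probe sets separate the groups, with differences of 1.35 and 0.92, while 1569956_at scatters from -1.11 to 3.46 in sh-PRLR.

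MYLK-AS1, an antisense transcript annotated on GRCh38.p14 at chr3:123585513-123630821, overlaps the 3′ end of MYLK, which spans chr3:123610049-123884332. It is named for this overlap, outside the list of members. Its 1 probe set read 6.59, 6.96 and 6.03 in sh-PRLR and 6.12, 5.90 and 5.29 in sh-Ctrl, a difference of 0.75 with overlapping groups that did not pass (limma adjusted p = 0.306). Whether the signals of MYLK and MYLK-AS1 are separate was not tested.

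Smooth muscle is the tissue best known for MYLK, and its markers were low in these cells. Of 7 smooth muscle markers, 6 lay below the median gene level, among them CNN1 at 3.25 ± 1.25 in sh-PRLR and 3.18 ± 1.01 in sh-Ctrl. Their summed level was 9.42 to 9.80 in sh-PRLR and 9.89 to 10.05 in sh-Ctrl. ACTA2, smooth muscle actin, was the brightest and fell by 0.62, to 8.83 ± 0.25 in sh-PRLR against 9.45 ± 0.07 in sh-Ctrl (limma adjusted p = 0.0134). The call for ACTA2 was lost without sh-Ctrl replicate 1 or 2 (limma adjusted p = 0.0642 or 0.0570) and for the mean of its probe sets (limma adjusted p = 0.776). ACTA2 carries most of the summed level, and SMTN, TAGLN, LMOD1 and CNN1 had higher means in sh-PRLR, by 0.34, 0.31, 0.09 and 0.07, without passing. DES and MYH11 had lower means in sh-PRLR, with differences of -0.99 and -0.17, also without passing. For DES every sh-PRLR array lay below every sh-Ctrl array (limma adjusted p = 0.23). Of the 7 markers, 2 had an unadjusted p under 0.05 by limma, against 4010 of all 19775 genes. The epithelial label held, as all 6 epithelial markers lay above the median gene level, with the keratin gene KRT18 at 15.30 ± 0.07 in sh-PRLR and 15.29 ± 0.07 in sh-Ctrl. Of the 6, 1 changed, the cadherin gene CDH1, which fell by 0.17 (limma adjusted p = 0.0284), a call lost in 9 of 13 alternatives.

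The other 9 members were tested with limma across all 19775 genes, with the variance allowed to follow the signal, and an adjusted p of 0.05 as the threshold. MYH10 and ROCK2 fell, MYL12A rose, and the 6 others did not pass. Of all genes tested 7.66% passed in this way, 3.34% as rises and 4.32% as falls, and 14.6% of those above the median gene level, where 8 of the 9 members lie. With limma's default settings, which give all genes 1 common prior variance, 0 of the 9 passed, while 3 of them had an unadjusted p under 0.05. By those settings 0.0202% of all 19775 genes passed, and 3209 of them had an unadjusted p under 0.05. The 3 changes of MYH10, ROCK2 and MYL12A were small beside that of MYLK, as the plot of members by array shows. MYLK was chosen for its large difference in these arrays, so this contrast follows largely from the choice.

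**Figure D2:**
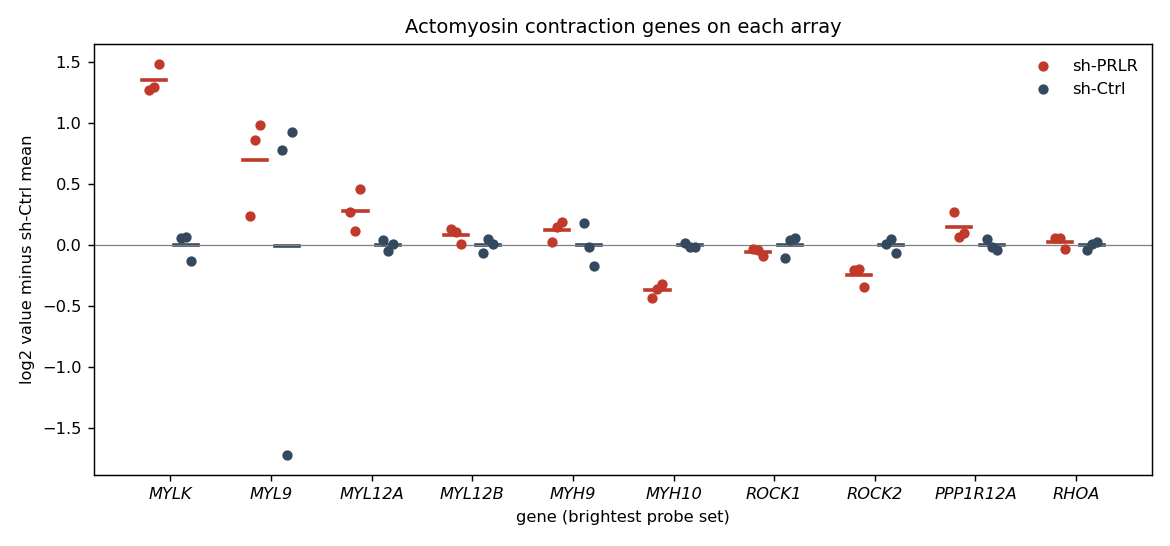
Log2 value of the brightest probe set of each member on each array, minus the sh-Ctrl mean of that gene (vertical axis), with sh-PRLR points in red left of sh-Ctrl points in dark blue and a bar at each group's mean of 3 arrays. MYLK stands at 1.35, MYH10 at -0.37 and ROCK2 at -0.24, and MYL9 scatters most, with 1 sh-Ctrl array far below the others.

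ROCK1 and ROCK2, the kinases downstream of RHOA, are close relatives with largely shared substrates. ROCK2 read 11.50, 11.52 and 11.37 in sh-PRLR and 11.72, 11.76 and 11.64 in sh-Ctrl, with every sh-PRLR array below every sh-Ctrl array. It fell by 0.24 (SE 0.06, limma adjusted p = 0.0366 over all genes), a fold of 0.845. The dimmer ROCK2 probe set, 211504_x_at, read 8.37, 8.13 and 8.36 in sh-PRLR and 8.52, 8.58 and 8.69 in sh-Ctrl, also without overlap, a difference of -0.31 that fell short of the threshold (limma adjusted p = 0.205 over all probe sets with 1 symbol). The call for ROCK2 was narrow. It did not pass when adjusted over all probe sets in place of genes (limma adjusted p = 0.0519), and it was lost without any 1 of the arrays except sh-PRLR replicate 1, with limma adjusted p = 0.0664 without sh-PRLR replicate 2, 0.118 without sh-PRLR replicate 3, and 0.114, 0.152 and 0.0563 without sh-Ctrl replicate 1, 2 or 3.

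ROCK1 read 13.28, 13.27 and 13.22 in sh-PRLR and 13.21, 13.35 and 13.37 in sh-Ctrl, a difference of -0.05 with a 95% interval of -0.17 to 0.06 (limma adjusted p = 0.650). The groups overlapped. Another bright ROCK1 probe set, 214578_s_at, read 11.19, 11.48 and 11.30 in sh-PRLR and 11.52, 11.50 and 11.50 in sh-Ctrl. Those groups did not overlap, but the difference of -0.18 did not pass (limma adjusted p = 0.225). The 3 dim ROCK1 probe sets, with means below the median gene level, differed by -0.15, -0.49 and -0.70 with SEs of 0.50 to 0.83. All 5 ROCK1 and both ROCK2 probe sets thus had lower means in sh-PRLR, although the probe sets of a gene share its RNA and are no replicates.

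RHOA, the GTPase that switches on both ROCK kinases, was bright and differed little. Its brightest probe set read 14.53, 14.52 and 14.44 in sh-PRLR and 14.43, 14.48 and 14.50 in sh-Ctrl, a difference of 0.03 with a 95% interval of -0.06 to 0.12 (limma adjusted p = 0.766). Probe set 1555814_a_at, nearly as bright, separated the groups at 13.43, 13.46 and 13.42 in sh-PRLR and 13.36, 13.32 and 13.22 in sh-Ctrl. Its difference of 0.14 did not pass (limma adjusted p = 0.138). The sign of the brightest probe set turned under quantile normalisation (-0.01) and median centring (-0.0045), so no direction is given for RHOA.

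PPP1R12A encodes the targeting subunit of myosin phosphatase. Its brightest probe set read 11.96, 11.77 and 11.80 in sh-PRLR and 11.75, 11.68 and 11.66 in sh-Ctrl. The groups did not overlap, but the difference of 0.15 (95% interval 0.01 to 0.29) did not pass over all genes (limma adjusted p = 0.217). The other probe sets gave -0.08 for 201604_s_at and 0.28 for 201602_s_at, so the 3 did not share a sign. Groups free of overlap were common on these arrays, at 25.8% of all genes, and 4 of the 9 members had them.

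The heavy chains MYH9 and MYH10, for non-muscle myosin IIA and IIB, form the motors themselves. MYH10 read 10.92, 10.98 and 11.02 in sh-PRLR and 11.37, 11.33 and 11.33 in sh-Ctrl (10.97 ± 0.05 against 11.35 ± 0.02, SD, n = 3 each). It fell by 0.37 (SE 0.06, limma adjusted p = 0.00340), to 0.773 of the sh-Ctrl value, with all 3 sh-PRLR arrays below the sh-Ctrl arrays. This was the steadiest call among the 9, since MYH10 passed in 12 of 14 alternatives, all 6 that leave out an array included. Its dimmer probe set, 213067_at, overlapped between groups at 7.44, 7.85 and 7.44 in sh-PRLR and 7.99, 7.52 and 7.80 in sh-Ctrl (difference -0.19, limma adjusted p = 0.678). The call was lost when both probe sets were averaged (-0.28, limma adjusted p = 0.198) and with default settings (limma adjusted p = 0.114).

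MYH9 was measured by 1 probe set, which read 9.31, 9.43 and 9.47 in sh-PRLR and 9.46, 9.27 and 9.11 in sh-Ctrl. The difference of 0.12 (95% interval -0.11 to 0.36, limma adjusted p = 0.592) did not pass, and the groups overlapped. Whether the differences of MYH9 and MYH10 differ from each other was not tested.

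The regulatory light chains MYL9, MYL12A and MYL12B carry the site that MYLK and the ROCK kinases phosphorylate. MYL12A and MYL12B were among the brightest transcripts on the array, whereas MYL9 was dim on both of its probe sets, under the median gene level. MYL12A read 13.77, 13.62 and 13.96 in sh-PRLR and 13.54, 13.46 and 13.51 in sh-Ctrl, so every sh-PRLR array was above every sh-Ctrl array. It rose by 0.28 (SE 0.07, limma adjusted p = 0.0447), a fold of 1.21. This call stood near the threshold. It was lost in 9 of 14 alternatives, among them quantile normalisation (limma adjusted p = 0.0738) and the mean of its 4 probe sets (0.09, limma adjusted p = 0.786), and the adjustment over all probe sets gave a limma adjusted p = 0.0572. Without sh-PRLR replicate 1 or 3 the limma adjusted p was 0.0823 or 0.103, and without sh-Ctrl replicate 1, 2 or 3 it was 0.0983, 0.163 or 0.115.

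The dimmer MYL12A probe sets did not share 1 direction. Probe set 1555976_s_at read 7.30, 7.27 and 7.26 in sh-PRLR and 7.66, 7.64 and 7.42 in sh-Ctrl, lower on every sh-PRLR array by a mean of 0.30 without passing (limma adjusted p = 0.394). Probe sets 1555977_at and 1555978_s_at gave 0.30 and 0.08, with overlapping groups. MYL12B read 14.83, 14.81 and 14.71 in sh-PRLR and 14.63, 14.74 and 14.70 in sh-Ctrl, a difference of 0.09 (95% interval -0.01 to 0.19) that missed the threshold (limma adjusted p = 0.327). MYL12A and MYL12B are neighbours on chromosome 18 with near-identical coding sequence, and 1 further probe set, annotated with both, was not used. The share of each in these signals is thus uncertain.

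MYL9, the light chain best known from smooth muscle, gave no usable difference. Its brighter probe set read 4.89, 5.51 and 5.64 in sh-PRLR and 5.43, 2.93 and 5.58 in sh-Ctrl, where replicate 2 stood apart from the other two arrays. The difference of 0.70 (95% interval -0.90 to 2.29, limma adjusted p = 0.669) became -0.16 without that array. The other probe set, 201058_s_at, lay at 2.31 ± 0.24 in sh-PRLR and 2.36 ± 0.50 in sh-Ctrl. At this signal a change of MYL9 was not detectable.

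**Figure D3:**
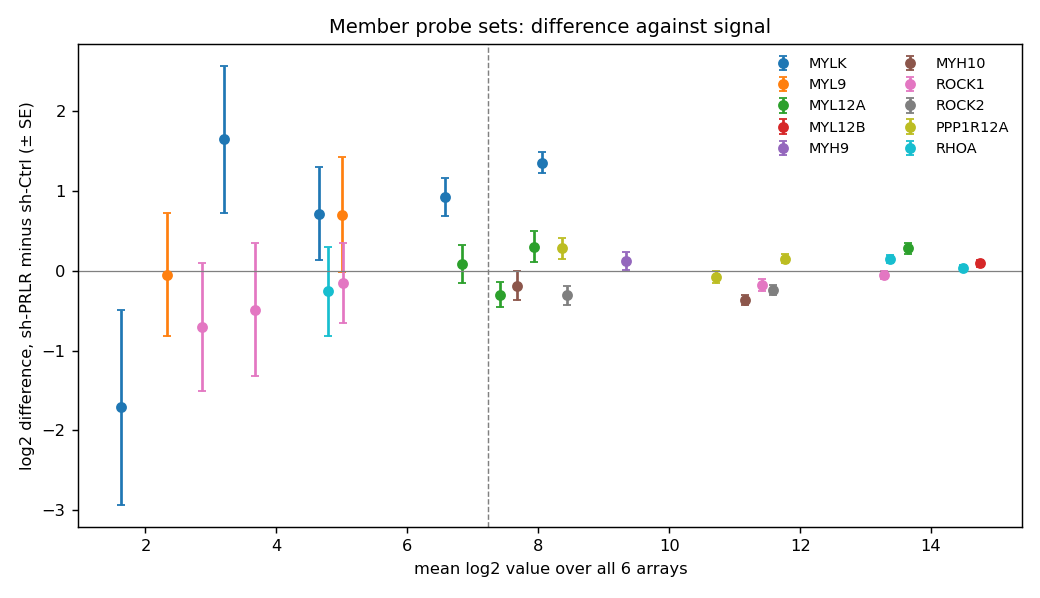
Log2 difference, sh-PRLR minus sh-Ctrl, with its SE from limma (vertical axis) for all 28 member probe sets against the mean log2 value over 6 arrays (horizontal axis), coloured by gene, with a dashed line at the median gene level of 7.23. The 11 probe sets below the line have wide errors, and the 17 above it lie between -0.37 and 0.30 except the brightest MYLK probe set at 1.35.

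Among the 23 probe sets of the 9 other members, 1 passed when adjusted over all probe sets with 1 symbol, the brightest of MYH10 (limma adjusted p = 0.00513), against 4.67% of all such probe sets. That call was lost under median centring (-0.41, limma adjusted p = 0.0555). With default settings 0 of the 23 passed, while 4 had an unadjusted p under 0.05. By the same settings 3209 of all 19775 genes did so, and all probe sets were not counted in this way. The median difference of the 9 genes was 0.09 and that of all genes 0. Over the 6 arrays, the level of MYLK had a Pearson correlation of -0.96 with MYH10, -0.91 with ROCK2 and 0.85 with MYL12A. It was 0.73 with PPP1R12A and between -0.52 and 0.59 with the rest. These describe 6 arrays that share 1 split into groups, and they carry no test.

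By the same measure, the 5 genes above the median level whose pattern over the 6 arrays was most like that of MYLK, out of 9690 compared, had correlations of 0.994 to 0.997. They were NLRC5, which drives genes of MHC class I, GCLM, the modifier subunit of the ligase that begins glutathione synthesis, NAMPT, an enzyme of NAD synthesis, and the zinc finger genes ZBTB41 and ZFAND1. NLRC5 read 8.37, 8.51 and 8.68 in sh-PRLR and 7.15, 7.19 and 6.81 in sh-Ctrl, so that, as for MYLK, sh-PRLR replicate 3 was the highest and sh-Ctrl replicate 3 the lowest. The 5 genes were picked by this correlation, so such a likeness is no separate result. Their differences ran from 0.22 for ZFAND1 to 1.47 for NLRC5.

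To place the members, 79 other contraction genes were followed in 6 lists by role, and 69 of them had a probe set used here. Of these 69, 5 rose and 9 fell, or 20.3%, against 7.66% of all genes. Since 51 of the 69 lay above the median gene level, the closer comparison is with bright genes, where 13 of those 51 and 14.6% of all genes passed. The median difference of the 69 was -0.04. With limma's default settings 0 of the 69 passed, and 20 had an unadjusted p under 0.05, as had 3209 of all 19775 genes. Calls among the 69 thus went in both directions, and 5 of the 6 lists are described next.

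**Figure D4:**
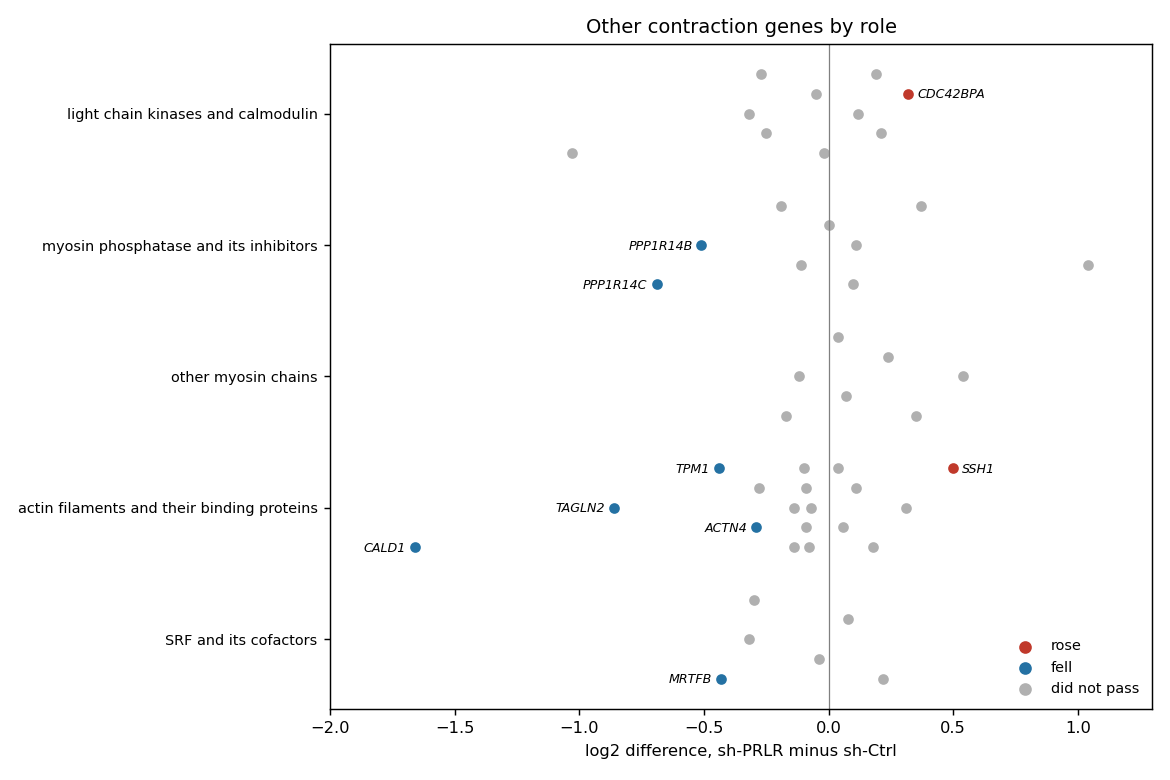
Log2 difference, sh-PRLR minus sh-Ctrl (horizontal axis), of 50 other contraction genes in 5 lists by role (vertical position within a list has no meaning), with genes that rose in red, genes that fell in blue and those that did not pass in grey. The 2 rises and 7 falls among them are named and lie in 4 of the 5 lists, CALD1 being lowest at -1.66.

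Of 10 measured light chain kinases, 1 rose. CDC42BPA, the kinase MRCK alpha, which works beside ROCK on myosin, read 11.04, 11.15 and 11.09 in sh-PRLR and 10.74, 10.81 and 10.78 in sh-Ctrl, a rise of 0.32 (limma adjusted p = 0.00984). Only 2 of its 5 probe sets had the higher mean in sh-PRLR, and the bright 213595_s_at separated the groups the other way (-0.29). The mean of all 5 was higher by 0.13 and did not pass (limma adjusted p = 0.746). The relatives of MYLK were dim and did not pass, with MYLK3 at 5.97 in sh-PRLR and 5.79 in sh-Ctrl and MYLK2 at 4.08 in sh-PRLR and 4.35 in sh-Ctrl.

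Among 9 genes of myosin phosphatase and its inhibitors, 2 fell, both of the PPP1R14 family of phosphatase inhibitors. PPP1R14A and PPP1R14D of that family had higher means in sh-PRLR, by 1.04 and 0.37. Neither passed (limma adjusted p = 0.572 and 0.528). Every sh-PRLR array of PPP1R14A lay above every sh-Ctrl array, at a very dim mean of 0.97 over all arrays. PPP1R14B read 10.73, 10.60 and 10.41 in sh-PRLR and 11.01, 11.07 and 11.21 in sh-Ctrl and fell by 0.51 (limma adjusted p = 0.00643). PPP1R14C fell by 0.69, to 8.43 ± 0.34 in sh-PRLR against 9.12 ± 0.18 in sh-Ctrl (limma adjusted p = 0.0323). That call was lost without sh-PRLR replicate 2 or 3 (limma adjusted p = 0.114 or 0.10) and without sh-Ctrl replicate 2 or 3 (limma adjusted p = 0.130 or 0.118). The catalytic subunit that pairs with PPP1R12A, PPP1CB, stood at 12.32 in both groups.

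None of the 7 other myosin chains passed, 0 also at an unadjusted p under 0.05 by either limma setting. The brightest, the essential light chain MYL6, read 13.83 ± 0.07 in sh-PRLR and 13.96 ± 0.10 in sh-Ctrl (difference -0.12, limma adjusted p = 0.260), and MYL6B, its close relative, differed by 0.07 (limma adjusted p = 0.619).

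Of 18 genes of actin filaments and their binding proteins, 1 rose and 4 fell. TAGLN2, an actin-bundling protein of the transgelin family, read 9.52, 9.27 and 9.42 in sh-PRLR and 10.22, 10.25 and 10.31 in sh-Ctrl and fell by 0.86 (limma adjusted p = 0.000317), a fold of 0.552. The mean of its probe sets fell by 0.52 (limma adjusted p = 0.0158). The other TAGLN2 probe set, 210978_s_at, differed by only -0.19 with overlapping groups and did not pass (limma adjusted p = 0.604). TPM1, a tropomyosin that lies along the filament, fell by 0.44, to 12.19 ± 0.06 in sh-PRLR against 12.62 ± 0.06 in sh-Ctrl (limma adjusted p = 0.000985). Its 3 bright probe sets, 210986_s_at, 210987_x_at and 206116_s_at, all separated the groups, with differences of -0.44, -0.51 and -0.61. The mean of all its probe sets, dim ones included, differed by -0.26 and did not pass (limma adjusted p = 0.661). Without probe sets named _x_at or _s_at the gene rested on a probe set with a mean of 6.30, whose difference was 0.28 without passing (limma adjusted p = 0.691).

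CALD1, caldesmon, which holds back myosin on actin, read 5.12, 5.82 and 5.79 in sh-PRLR and 7.34, 7.11 and 7.26 in sh-Ctrl and fell by 1.66 (limma adjusted p = 0.00602). The sh-PRLR values lay below the median gene level and the sh-Ctrl values close to it, so the size of this fall is uncertain. The mean of CALD1 over all arrays, 6.4, was also below that level. Of its 11 probe sets 5 had a higher mean in sh-PRLR, and the mean of all 11 was lower by 0.13 (limma adjusted p = 0.945). SSH1, a phosphatase that activates cofilin, rose by 0.50, to 10.68 ± 0.06 in sh-PRLR against 10.18 ± 0.06 in sh-Ctrl (limma adjusted p = 0.00190), and all 4 of its probe sets had higher means. The mean of the 4 was higher by 0.60 but did not pass (limma adjusted p = 0.285). The remaining fall was that of ACTN4 (-0.29), an actinin that cross-links filaments, also named after its values were seen, and its call was lost in 9 of 14 alternatives.

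Of 6 genes of SRF and its cofactors, 1 fell. MRTFB, a cofactor of SRF that responds to free actin, read 10.45, 10.66 and 10.58 in sh-PRLR and 10.96, 11.02 and 11.00 in sh-Ctrl, a fall of 0.43 (limma adjusted p = 0.00438). Of its 5 probe sets 2 had higher means in sh-PRLR, and the mean of all 5 was lower by 0.19 without passing (limma adjusted p = 0.921). SRF itself read 7.65 ± 0.15 in sh-PRLR and 7.97 ± 0.19 in sh-Ctrl, a difference of -0.32, which missed the threshold (limma adjusted p = 0.292). MRTFA, the other widespread cofactor, stood at 7.77 in sh-PRLR and 7.70 in sh-Ctrl.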

How the data were processed

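RNA of the SW-1990 cells was measured on 6 Affymetrix U133 Plus 2.0 arrays. The deposited table holds log2 values; MAS5, RMA and affy are listed per the submitters' processing notes, which give them no role. On every array the trimmed mean (2%) of the linear values was 500, which MAS5-style scaling would produce, so no further normalisation was applied. The number of arrays limits precision.

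The annotation gave a single symbol to 41091 of 54675 probe sets; 62 controls were left out. The median SD within groups was 0.80 for genes at or below the median level and 0.10 above it. Therefore limma 3.58.1 in R 4.3.3 was run with eBayes trend and robust, two-sided, and Benjamini-Hochberg adjusted p-values were taken over all genes, or for single probe sets over all those with a single symbol. This setting, the members, the lists and the tests were chosen with earlier results of these data known, counts by both limma settings included. The text names all members and their probe sets, PRLR, up to 4 called genes per wider list with the smallest adjusted p (or the 2 brightest where none passed), and the 5 genes above the median level, with a characterised symbol, that correlated best with MYLK; genes named outside this rule are marked as such or belong to the marker lists, and the genes of 1 wider list, counted in the totals, are not reported here. Alternatives were limma's default settings, trend without robust (added after seeing the data), quantile normalisation, median centring, a filter on dim genes, other probe set rules, all probe sets but the controls, a replicate block and leaving out each array. The fit was also run on simulated data whose spread followed the signal by design. Such data cannot decide between the limma settings. Plots were made in Python 3.11.15 with matplotlib 3.10.9.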

Additional observations from a re-analysis of the deposited data

How the results depend on the processing

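The rise of MYLK lay between 1.29 and 1.40 when any 1 array was left out, and was 0.58 as the mean of its 5 probe sets, where dim probe sets weigh as much as the brightest. Limma's default settings called 4 genes in all, 0 of the 9 other members and 0 of the 69 wider contraction genes, against 1514, 3 and 14. Median centring called 504 genes, 1 of the 9 and 6 of the 69, and 28.4% of all its calls were higher in place of 43.6%. It ended the calls of MYL12A, ROCK2, CDC42BPA, PPP1R14C, CDH1 and ACTN4, among the genes named as changed. The mean of all probe sets called 609 genes, 0 of the 9 and 5 of the 69. Without 1 array the count of all genes ran from 665 (without sh-Ctrl replicate 2) to 1322 (without sh-PRLR replicate 1), and was 859 and 948 without sh-PRLR replicate 2 or 3, and 821 and 893 without sh-Ctrl replicate 1 or 3. That of the 9 members ran from 1 to 2 and that of the 69 from 10 to 16. Fits without an array have fewer samples; for the other changes the cause was not tested.

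Signs turned, without passing, for RHOA under quantile normalisation (-0.01), median centring (-0.0045) and the mean of its probe sets (-0.03), and its probe set 200059_s_at gave the same values under the first and second of these. TPM1 was 0.28 without _x_at and _s_at probe sets. Without 1 array MYL9 and its probe set 244149_at ran from -0.16 to 1.16, 201058_s_at of MYL9 from -0.22 to 0.23, 1555978_s_at of MYL12A from -0.14 to 0.21, and 1561486_at of ROCK1 from -0.34 to 0.07. The counts stayed within 1.5 times under quantile normalisation, the filter on the dimmest 40% of genes, no probe sets named _x_at or _s_at, and trend without robust. The numbers of genes tested differed, however. The filter called 2026 of 11865 genes, a larger share than the 1514 of 19775. Without probe sets named _x_at or _s_at 1011 of 17098 genes were called.

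The labels do not say whether arrays with the same replicate number were prepared together. The deviations of same-numbered arrays correlated at -0.06, 0.06 and -0.10, and 1 of the 3 numbers had its best match in its own number. With so few arrays these values show no pairing but cannot exclude it. A replicate block gave 1090 genes, 3 of the 9 members and 11 of the 69. Among the genes named as changed it ended the calls of PPP1R14C, CDH1 and ACTN4 (limma adjusted p = 0.0605, 0.0657 and 0.0829). The alternatives for ACTA2, CDH1 and ACTN4 were added after seeing the data. Below the median gene level the spread between arrays is wide, which limits what can be said of MYL9, PRLR and the dim MYLK probe sets.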
